A study of Macaca mulatta with 17 samples.

Results

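The 10 genes described here are OXTR, the oxytocin receptor, GJA1, the gap junction protein connexin 43, and 8 genes of the prostaglandin system, namely the synthesis enzymes PTGS1, PTGS2 and PTGES, the receptors PTGFR, PTGER2, PTGER3 and PTGER4, and the breakdown enzyme HPGD. They were chosen by name among 16458 gene names on a rhesus macaque array, and each is given by its brightest probe. This choice, and that of the other gene lists below, was made with earlier results of these data known. All 10 were found, on 13 of 20217 probes, because PTGER3 had 4 probes. RNA from the uterus of single female rhesus macaque fetuses was measured on 17 arrays, 1 per fetus. Dams received a daily fruit treat with 400 µg per kg of deuterated bisphenol A (BPA), a plastics chemical with weak estrogenic activity, or with the ethanol vehicle alone. In the GD100 groups (5 control, 5 BPA) dosing ran from gestational day 50 to 100 and the fetuses were delivered by cesarean section. In the GD165 groups (4 control, 3 BPA) it ran from day 100 to about day 165 and delivery was vaginal, so age and mode of delivery cannot be told apart. Stillborn fetuses had been left out of the arrays by the study. Each uterus was cut sagittally from fundus to cervix, and 1 side was frozen for gene expression. Whether all or a part of that side gave the RNA is not stated.

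Prostaglandins are lipid signals made from arachidonic acid. The cyclooxygenases PTGS1 and PTGS2 make the precursor PGH2, PTGES turns it into PGE2, and HPGD begins the inactivation of PGE2 and PGF2α. In the adult uterus at term, PGF2α acting on PTGFR and oxytocin acting on OXTR raise calcium in smooth muscle cells and drive contraction, PGE2 contracts or relaxes the muscle depending on which of its receptors is present, and GJA1 channels couple the cells so that they contract together. OXTR and GJA1 are textbook contraction-associated genes of the pregnant uterus, while the organ measured here is the uterus of the unborn animal itself.

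Each probe is an oligonucleotide of 60 bases. The first 30 bases of the probes for the genes on which the results turn are given, 5′ to 3′ and without capitals, so that each measurement can be traced to its sequence, with the array's transcript variant number in the name for PTGER3.
OXTR: agaaggggattaccttgtaagaccatctgg
PTGFR: tggcaatttgccaagtacttggggattatt
PTGER4: taaaggatggcaagttgcatcagaaagagc
GJA1: agacgactggtgaaaatgctgagtatgaca
PTGER3 variant 9: ccttctgattcaccacgatcaagtcaggat
PTGER3 variant 5: aagggatagcagtttgtttttattcaaaga
PTGER3 variant 1: taactgttatccagaagctgttatgtactg
PTGER3 variant 8: ctcctcagtgacttgaggttatggatttgt
The 4 PTGER3 probes shared no run longer than 7 bases with each other, so they are separate sequences. A processed pseudogene of GJA1 is known in the human genome, and signal from RNA of such a copy cannot be told apart from that of GJA1 on this probe.

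Levels below are log2 of the processed fluorescence signal, averaged over the 2 spots of a probe and scaled so that every array has the same 75th percentile, 12.62. Differences were tested with limma across all 20217 probes, and a gene was called where its Benjamini-Hochberg adjusted p was under 0.01. On the arrays, 83.8 to 89.0% of spots were well above background, and the main probes of all 10 genes were so on all 17 arrays, none of them saturated. The 12 smooth muscle and 6 stromal markers and 9 of 10 epithelial markers were well above background on every array, as the labelled tissue would hold. Marker levels of other tissues set a few arrays apart. The mean of 7 skeletal muscle markers, each relative to its mean over the arrays, was 5.26 in GD165 control 5 and 4.58 in GD165 BPA 5 against -2.08 to 0.53 at GD100 and -0.38 to 2.46 on the other GD165 arrays, and the like mean of 10 squamous epithelium markers was 3.47 in GD165 control 6 against -0.82 to 0.68 on all other arrays.

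Between GD100 and GD165 in control animals, 3 of the 5 receptors and GJA1 were called higher and none of the 4 enzymes was called. Over the 10 genes this made 4 calls (OXTR, PTGER3, PTGER4 and GJA1), all higher at GD165, beside 11.5% of all probes called and 6.32% called higher. All 5 receptors and GJA1 lay above 0, with log2 fold changes of 0.62 to 2.84 and a median of 1.22, whereas the 4 enzymes lay at -0.46 to -0.04 with a median of -0.15. The median over all probes was 0.00. In 4 of the 10 genes every GD165 control lay above every GD100 control, which was so for 9.51% of all probes.

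**Figure D1:**
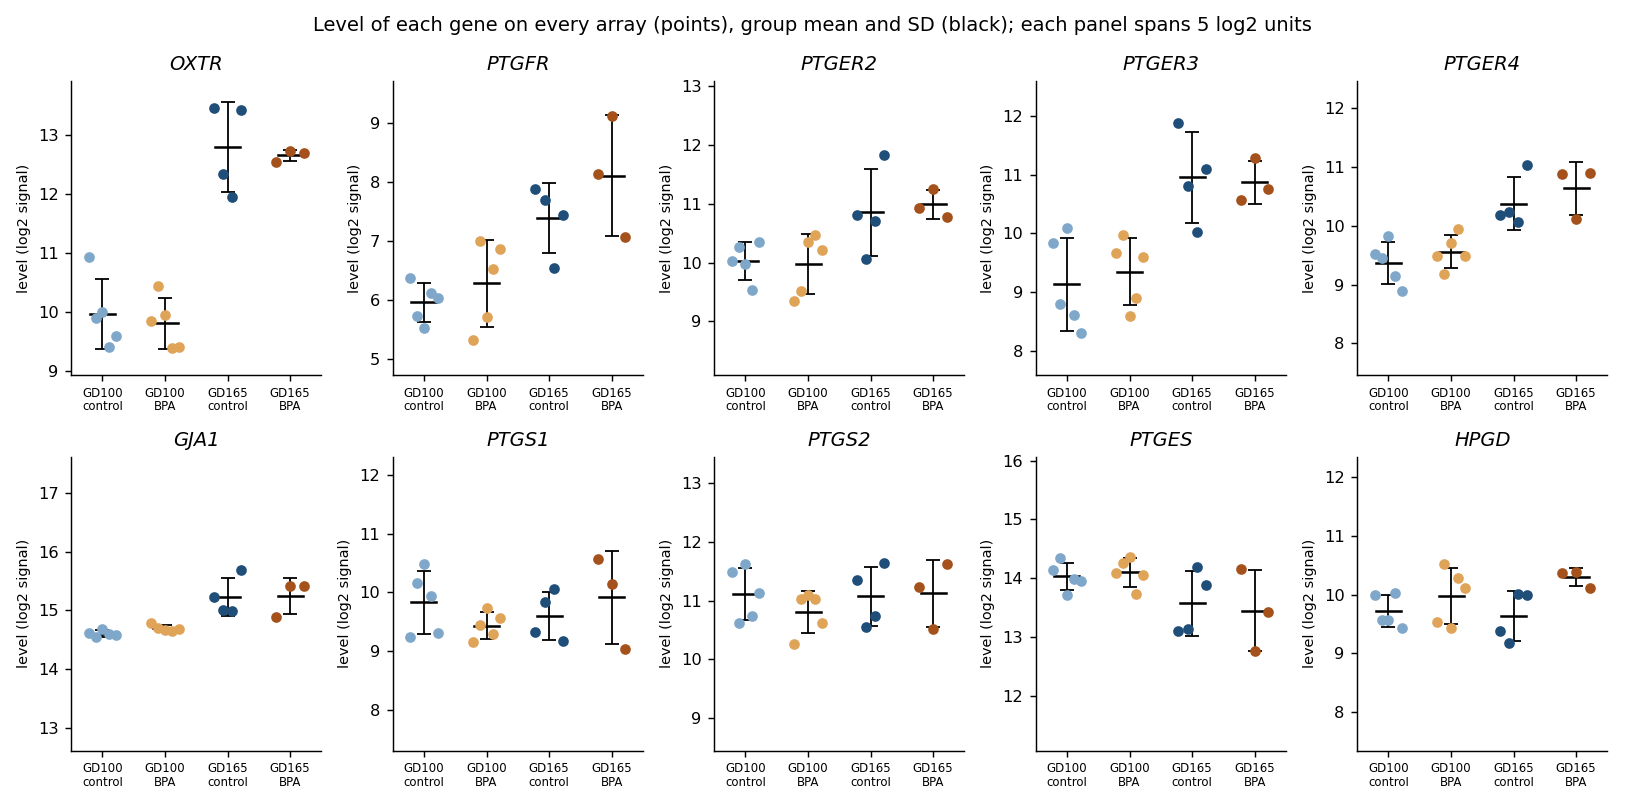
Level (log2 signal, y axis) of each of the 10 genes on every array (points) in the 4 groups, with the group mean and SD in black. The panels all span 5 log2 units around their own middle, so spreads but not heights compare between panels, and OXTR is the gene in which the GD165 points lie farthest from the GD100 points in both treatments.

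OXTR, the receptor through which oxytocin contracts uterine muscle, had the highest age difference of the set. Its levels in GD100 controls 1 to 5 were 10.93, 9.90, 10.00, 9.40 and 9.59. In GD165 controls 1, 3, 5 and 6 they were 13.47, 12.34, 11.95 and 13.44. The lowest GD165 array stood 1.02 above the highest GD100 array, GD100 control 1, and the GD165 arrays fell into a higher and a lower pair. The means were 9.96 ± 0.59 (SD, n = 5) and 12.80 ± 0.77 (SD, n = 4), which gave a log2 fold change of 2.84 (SE 0.35, adjusted p = 6.24e-05), or 7.15-fold (95% confidence interval 4.28 to 11.9). An exact permutation test, two-sided over 126 regroupings, gave p = 0.00794, the smallest it can give. Within the slides that held both ages, the difference was 2.35 on slide 3 and 3.88 on slide 5, with 1 array of each age on each. Without the 3 arrays that stood apart in skeletal muscle or squamous markers it was 2.94 (adjusted p = 0.000738).

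PTGER3, the EP3 receptor that couples mainly to inhibition of cyclic AMP and is linked to contraction, was the next in size. GD100 controls had levels of 9.84, 8.80, 10.10, 8.61 and 8.30. GD165 controls had levels of 11.88, 10.81, 10.02 and 11.10. GD165 control 5, at 10.02, lay just under GD100 control 3, at 10.10, so the groups overlapped by this 1 array. The log2 fold change was 1.82 (SE 0.42, adjusted p = 0.0063), or 3.53-fold (95% confidence interval 1.89 to 6.59). Without the 3 arrays that stood apart in muscle or squamous markers it was 2.21 and was not called (adjusted p = 0.0164). The difference within slides was 0.71 on slide 3 and 3.58 on slide 5.

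The other PTGER3 probes bear on whether this depends on the sequence chosen. The variant 5 probe gave an age log2 fold change of 1.31 (adjusted p = 0.0305) and the variant 1 probe 1.81 (adjusted p = 0.0108), neither called. Over the 17 arrays, after taking out the group means, Pearson's r between these 2 probes and the main probe was 0.96 and 0.90, so the same animals were high or low on all of them. The variant 8 probe was well above background only in GD165 control 1, the array on which the main probe was also brightest, and it gives no fold for the groups.

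**Figure D2:**
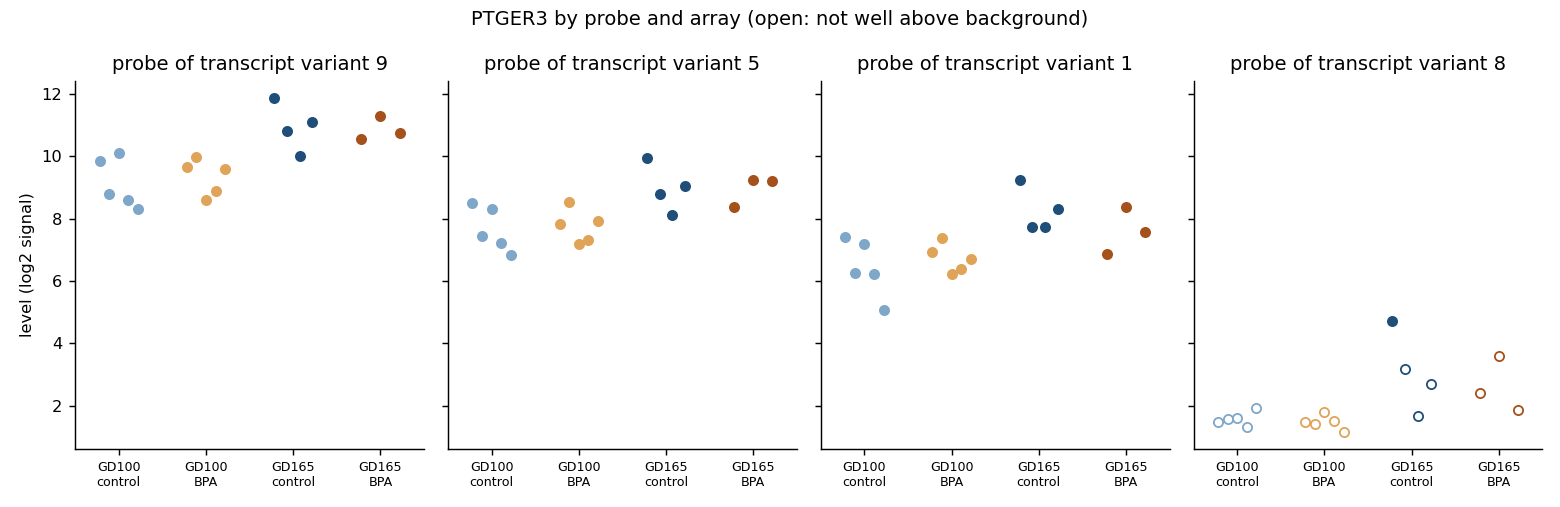
Level (log2 signal, y axis) of the 4 PTGER3 probes on every array by group, with open points where the spots were not well above background. On the probes of variants 9, 5 and 1 GD165 control 1 is the highest of the 17 arrays, and the variant 8 probe has a single filled point.

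PTGER4, the EP4 receptor that raises cyclic AMP and relaxes smooth muscle, was also called. Its levels were 9.53, 9.46, 9.83, 9.15 and 8.89 in GD100 controls. In GD165 controls they were 10.18, 10.24, 10.07 and 11.04. The groups did not overlap, and 3 GD165 arrays lay close together with GD165 control 6 above them. The log2 fold change was 1.01 (SE 0.24, adjusted p = 0.0071), or 2.01-fold (95% confidence interval 1.42 to 2.87). Without the 3 arrays that stood apart in muscle or squamous markers it was 0.84 and was not called (adjusted p = 0.0584). Within slides the difference was 0.41 on slide 3 and 1.29 on slide 5.

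PTGFR, the receptor for PGF2α, did not pass the threshold in controls. Its levels were 6.38, 5.72, 5.53, 6.11 and 6.03 in GD100 controls and 7.88, 7.70, 6.54 and 7.44 in GD165 controls. The groups did not overlap, with GD165 control 5 lying 0.16 above the highest GD100 array. The log2 fold change was 1.43 (SE 0.42, adjusted p = 0.0235), or 2.70-fold (95% confidence interval 1.46 to 5.02). Under normexp background correction, which changes dim signals most, it was 0.89, and within slides 2.17 on slide 3 and 1.85 on slide 5. Over the 17 arrays, after taking out group means, the level of PTGFR and the skeletal muscle score had r = -0.80, and whether muscle in the sample had a part in this level was not tested.

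PTGER2, the EP2 receptor that also raises cyclic AMP, had levels of 10.02, 10.27, 9.98, 9.53 and 10.35 in GD100 controls. In GD165 controls they were 10.82, 10.06, 10.70 and 11.84, overlapping the younger animals through GD165 control 3. The log2 fold change was 0.82 (SE 0.31, adjusted p = 0.0751), and without the 3 arrays apart it was 0.41 (adjusted p = 0.494). GD165 control 6, the array high in squamous markers, had the highest level of PTGER2, PTGER4, GJA1 and PTGS2 among the 17 arrays.

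GJA1, the connexin that couples muscle cells, changed least in size among the called genes but had the tightest values at GD100. The GD100 controls lay at 14.62, 14.54, 14.69, 14.60 and 14.59, an SD of 0.053. The GD165 controls lay at 15.22, 15.00, 15.00 and 15.69, an SD of 0.32. Every GD165 array was above every GD100 array, and the spread was wider at the later age. The log2 fold change was 0.62 (SE 0.13, adjusted p = 0.0042), or 1.54-fold (95% confidence interval 1.26 to 1.88), and the exact permutation test gave p = 0.00794. Without the 3 arrays apart it was 0.51 (adjusted p = 0.0176), and with slide as a fixed block 0.67 (adjusted p = 0.0272), neither called. Within slides the difference was 0.32 on slide 3 and 0.63 on slide 5.

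The 4 enzymes showed no called change in controls. PTGES, the PGE2 synthase, had levels of 13.72 to 14.35 (median 13.98) at GD100 and 13.09, 13.13, 14.19 and 13.88 at GD165, so that GD165 controls 1 and 3 lay below all younger controls and the other two within their range. Its log2 fold change was -0.46 (SE 0.27, adjusted p = 0.263), with a 95% confidence interval of -1.03 to 0.12. PTGS2, the inducible cyclooxygenase, had 10.62 to 11.62 (median 11.13) at GD100 and 10.56 to 11.64 (median 11.05) at GD165. Its log2 fold change of -0.04 (SE 0.29, adjusted p = 0.939) had an interval of -0.66 to 0.57. PTGS1, the constitutive cyclooxygenase, had 9.24 to 10.48 (median 9.93) and 9.18 to 10.05 (median 9.58), with a log2 fold change of -0.23 (SE 0.31, adjusted p = 0.673) and an interval of -0.89 to 0.43. HPGD had 9.43 to 10.02 (median 9.58) and 9.18 to 10.01 (median 9.69), with a log2 fold change of -0.07 (SE 0.24, adjusted p = 0.872) and an interval of -0.58 to 0.43. The ranges of the ages overlapped in all 4.

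The arrays from BPA-exposed animals gave a second comparison of the ages, in animals separate from the controls. The older and younger BPA animals also differed in dosing window, which cannot be told apart from age here. Of the 10 genes, 2 were called, OXTR and PTGER4, both higher at GD165, beside 9.68% of all probes called and 4.82% called higher. Both were also called in controls, as were 6.67% of all probes in the same direction. In 6 of the 10 genes, the 5 receptors and GJA1, every GD165 BPA array lay above every GD100 BPA array, which was so for 11.7% of all probes. The log2 fold changes of these 6 ran from 0.54 to 2.86 with a median of 1.30, and those of the 4 enzymes from -0.65 to 0.48 with a median of 0.32. The signs were the same as in controls for 7 of the 10 genes, beside 70.7% of all probes, and PTGS1, PTGS2 and HPGD were those that differed.

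OXTR levels were 9.85, 10.43, 9.95, 9.39 and 9.41 in GD100 BPA 1 to 5. They were 12.55, 12.74 and 12.70 in GD165 BPA 3, 4 and 5. The 3 older animals lay close together and 2.12 or more above the highest younger one, and the log2 fold change was 2.86 (SE 0.38, adjusted p = 0.000204), or 7.24-fold (95% confidence interval 4.14 to 12.7). On slide 2, which held 1 BPA array of each age, the OXTR difference was 3.29 and that of PTGER4 1.43. PTGER4 levels were 9.49, 9.18, 9.71, 9.94 and 9.48 at GD100 and 10.89, 10.12 and 10.91 at GD165, with GD165 BPA 4 nearest to the younger animals. Its log2 fold change was 1.08 (SE 0.26, adjusted p = 0.0092), or 2.12-fold (95% confidence interval 1.44 to 3.11). PTGFR levels were 5.32, 6.99, 5.70, 6.52 and 6.86 at GD100 and 8.15, 9.12 and 7.07 at GD165. Its log2 fold change was 1.83 (SE 0.46), just outside the threshold (adjusted p = 0.011), and GD165 BPA 5, one of the arrays high in skeletal muscle markers, was the lowest of its group. Without the 3 arrays apart the PTGFR value was 2.36 and was called (adjusted p = 0.0039), while that of PTGER4 was 0.95 and was no longer called (adjusted p = 0.0301).

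The other receptors and GJA1 passed an adjusted p of 0.05 but not 0.01 in BPA animals, a threshold that 21.0% of all probes passed. PTGER3 had levels of 9.67, 9.97, 8.60, 8.91 and 9.59 at GD100 and 10.57, 11.28 and 10.75 at GD165, without overlap, and a log2 fold change of 1.52 (SE 0.46, adjusted p = 0.029). This was so on the main probe, whereas the groups overlapped on the variant 5 probe, at 1.19 (adjusted p = 0.0665), and on the variant 1 probe, at 0.89 (adjusted p = 0.224). GJA1 had 14.79, 14.71, 14.67, 14.66 and 14.69 at GD100 and 14.89, 15.42 and 15.42 at GD165, and a log2 fold change of 0.54 (SE 0.15, adjusted p = 0.0174). PTGER2 had 9.34, 9.52, 10.35, 10.46 and 10.22 at GD100 and 10.93, 11.25 and 10.79 at GD165, and a log2 fold change of 1.01 (SE 0.34, adjusted p = 0.0468). Among the enzymes, PTGES had a log2 fold change of -0.65 (SE 0.29, adjusted p = 0.128), with levels of 14.16, 12.77 and 13.42 at GD165 against 13.72 to 14.37 at GD100. PTGS1, PTGS2 and HPGD lay at 0.48, 0.32 and 0.32, with adjusted p of 0.332, 0.514 and 0.407.

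**Figure D3:**
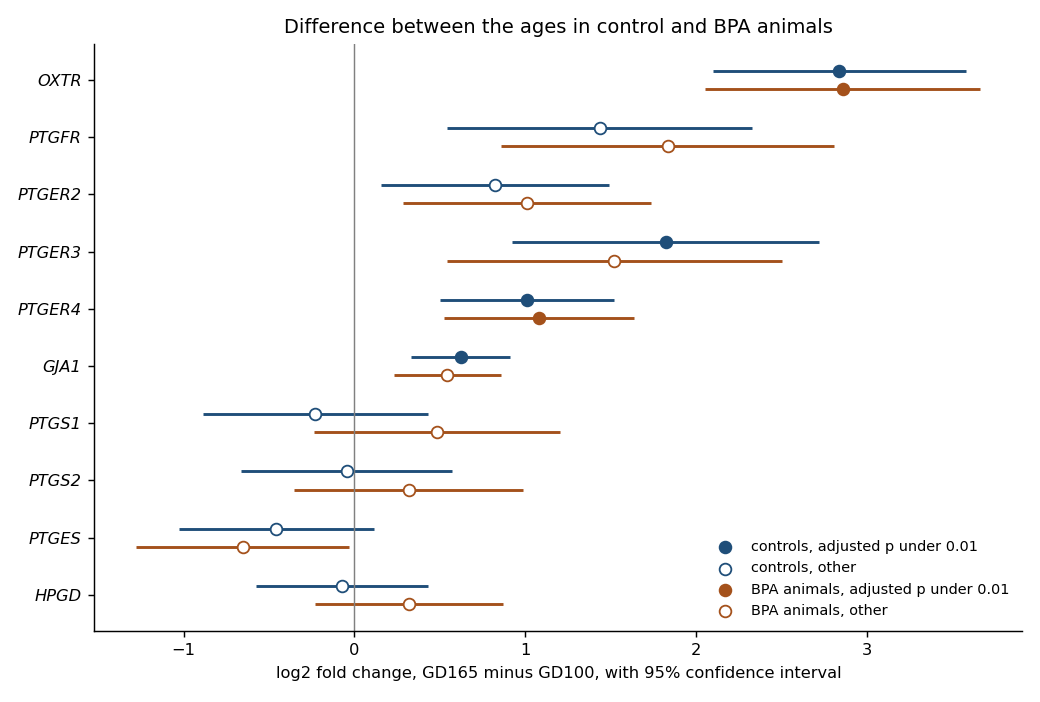
Log2 fold change between the ages (GD165 minus GD100, x axis) of each gene with its 95% confidence interval, in controls and in BPA animals, with filled points where the adjusted p was under 0.01. OXTR lies at 2.84 and 2.86, the other receptors and GJA1 between 0.54 and 1.83, and the enzymes on both sides of 0.

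With the age effect averaged over treatments, an alternative chosen after seeing the data, 6 of the 10 genes were called, all 5 receptors and GJA1, beside 22.4% of all probes. Of the calls above, those of OXTR held without any single array, in controls at adjusted p of 3.27e-05 to 0.000351, while the others lay near the threshold. In controls, GJA1 was no longer called without GD100 control 2 or 4 or GD165 control 1 or 6 (adjusted p = 0.01 to 0.0117), with log2 fold changes of 0.60, 0.62, 0.62 and 0.47. PTGER3 was no longer called without GD100 control 2, 4 or 5 or GD165 control 1, 3 or 6, with log2 fold changes of 1.74, 1.69, 1.61, 1.51, 1.87 and 1.77 and adjusted p up to 0.0253. PTGER4 was no longer called without GD100 control 1, 2, 4 or 5 or GD165 control 1, 3 or 6, with log2 fold changes of 1.05, 1.03, 0.95, 0.89, 1.08, 1.06 and 0.79, nor without GD100 BPA 3 or 5, which leave its value at 1.01, and its adjusted p reached 0.0286. In BPA animals, PTGER4 was no longer called without GD100 BPA 1, 2, 3 or 5 or GD165 BPA 3 or 5, with log2 fold changes of 1.06, 0.99, 1.12, 1.06, 0.96 and 0.95, nor without GD100 control 1, 2 or 4 or GD165 control 1 or 3, which leave it at 1.08, and its adjusted p reached 0.0463. GJA1 was called in BPA animals without GD165 BPA 3 (0.72, adjusted p = 0.0049) or GD165 control 6 (0.54, adjusted p = 0.0035), and PTGFR without GD100 BPA 2 (2.01, adjusted p = 0.0097), GD165 BPA 5 (2.36, adjusted p = 0.0046) or GD165 control 5 (1.83, adjusted p = 0.0087).

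BPA exposure was compared with vehicle at each age to ask whether it shifted these genes. At GD100, 0 of the 10 genes and 0.0% of all probes were called by limma, and at an unadjusted p under 0.05 the counts were 0 of 10 genes and 3.79% of all probes. The log2 fold changes, BPA minus control, ran from -0.39 for PTGS1 to 0.33 for PTGFR with a median of 0.08, every adjusted p was 0.9999, and the groups overlapped in every gene, whereas 0.782% of all probes had groups that did not overlap. The 95% confidence intervals were narrowest for GJA1, -0.17 to 0.37, and for OXTR, PTGER3 and PTGER4 they were -0.85 to 0.54, -0.63 to 1.06 and -0.29 to 0.67. For GJA1, whose SD was 0.053 in controls and 0.051 in BPA animals at this age, an exact permutation test gave an unadjusted p = 0.0317, the lowest of the 10 genes at this age, with a log2 fold change of 0.10. Taken with the GD100 arrays alone, limma gave it an adjusted p of 0.966.

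At GD165 again 0 of 10 genes and 0.0% of all probes were called, and 1 of 10 genes and 8.61% of probes had an unadjusted p under 0.05. The gene was HPGD, the enzyme that starts prostaglandin breakdown. Its levels were 9.38, 9.18, 10.01 and 9.99 in GD165 controls 1, 3, 5 and 6 and 10.38, 10.39 and 10.12 in GD165 BPA 3, 4 and 5. The BPA arrays lay above all controls by 0.11 or more, as in 2.07% of all probes. The log2 fold change was 0.65 (SE 0.27, adjusted p = 0.532 by limma), or 1.57-fold (95% confidence interval 1.06 to 2.34). The exact permutation test gave p = 0.0857 over 35 regroupings, which cannot give less than 0.0286. On slide 5, which held 2 BPA arrays and 1 control array, the mean levels were 10.38 and 9.38.

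PTGFR was at 0.72 at GD165 (SE 0.48, adjusted p = 0.708), within overlapping groups, and single arrays moved this value, to 0.22 without GD165 BPA 4 and to 1.25 without GD165 BPA 5. The rest lay between -0.14 for OXTR and 0.32 for PTGS1. The intervals allowed differences of -0.98 to 0.70 for OXTR, -1.11 to 0.94 for PTGER3, -0.32 to 0.84 for PTGER4 and -0.31 to 0.34 for GJA1. Between the BPA effects at both ages, the interaction was called for 0 of 10 genes and 0.0% of probes, and at an unadjusted p under 0.05 for 0 genes and 7.83% of probes. Its values ran from -0.30 for PTGER3 to 0.71 for PTGS1 (SE 0.46, adjusted p = 0.737), and for OXTR it was 0.02 (SE 0.51, 95% confidence interval -1.08 to 1.11). The BPA comparisons and the age comparisons share their animals, so these values restate the same arrays. Since the ages also differed in dosing window, the interaction cannot tell age from window.

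**Figure D4:**
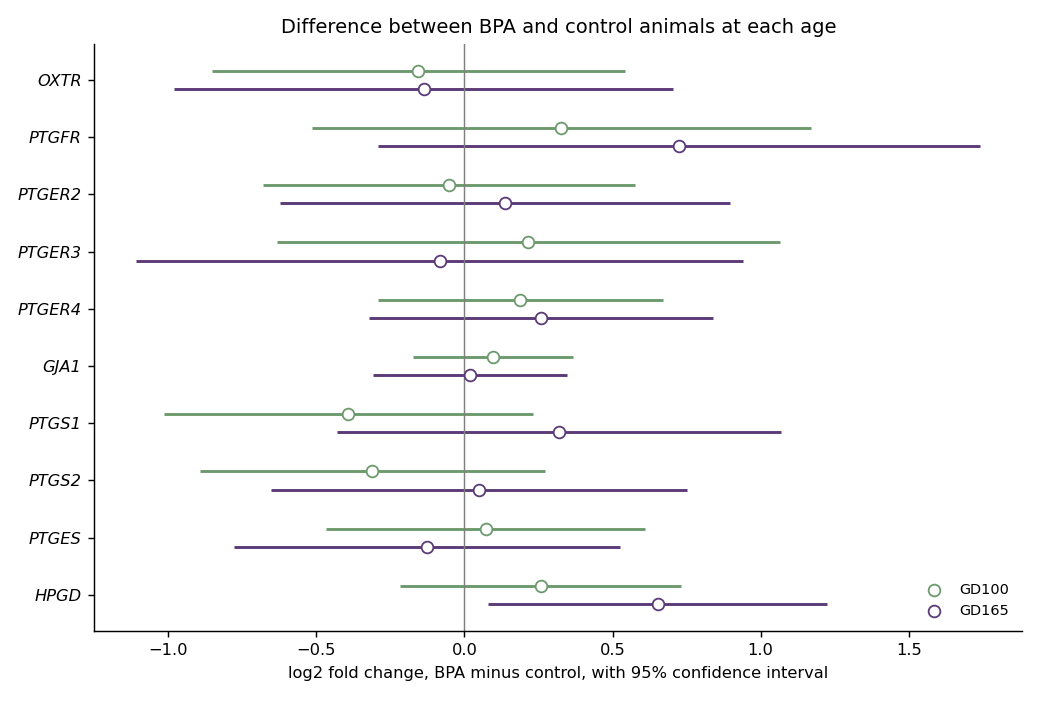
Log2 fold change between treatments (BPA minus control, x axis) of each gene at GD100 and GD165 with its 95% confidence interval. The intervals cover 0 in all cases except HPGD at GD165, at 0.65 with an interval of 0.08 to 1.22.

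Other genes of prostaglandin handling and uterine contraction were taken from a list of 76, of which 67 were on the array. Between the ages in controls, 9 of the 67 were called higher and 4 lower (19.4%, beside 11.5% of all probes), with 47 above 0, as were 50.5% of all probes, and a median log2 fold change of 0.15. In BPA animals 7 were called higher and 2 lower (13.4%, beside 9.68%), with 43 above 0, as were 44.7% of all probes, and a median of 0.18 where the median of all probes was -0.05. By role, the genes of prostaglandin release and synthesis had 1 of 10 called in each comparison, the remaining prostanoid receptors 1 of 6 in controls and 0 of 6 in BPA animals, transport and breakdown 0 of 3 in both, and contraction 11 of 48 and 8 of 48. Unlike the 5 receptors above, these 6 had 4 below 0 and 2 above 0 in each comparison. Their median log2 fold changes were -0.33 in controls and -0.41 in BPA animals. With GD165 control 1 left out the count in controls was 7, and it was 8 without GD100 control 3, while in BPA animals it was 4 without GD165 BPA 4. Over all probes, the calls in these fits were 1701, 1781 and 994, where the fit of all arrays had 2328 in controls and 1956 in BPA animals.

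ANXA1, the glucocorticoid-responsive annexin that restrains phospholipase A2, rose in both comparisons, by 1.95 (SE 0.20, adjusted p = 2.08e-05) in controls and 1.72 (SE 0.22, adjusted p = 0.000181) in BPA animals. PTGDR, the receptor for PGD2, fell by 1.41 (SE 0.31, adjusted p = 0.0042) in controls. Its mean level in BPA animals was 8.98 at GD100 and 7.85 at GD165, lower but not called. Regulators of G protein signaling shorten the signal of receptors such as OXTR and PTGFR. Of the 3 on the list, 2 were called higher in both comparisons. RGS5 rose by 1.79 (SE 0.16, adjusted p = 8.84e-06) in controls and by 2.14 (SE 0.18, adjusted p = 1.24e-05) in BPA animals, and RGS4 by 1.70 (SE 0.27, adjusted p = 0.0005) and 1.46 (SE 0.30, adjusted p = 0.0035). RGS2 rose by 0.97 (SE 0.19, adjusted p = 0.0022) in controls. In BPA animals its mean level was 13.65 at GD100 and 14.28 at GD165, higher but not called.

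Genes of calcium entry and release went in both directions. A log2 fold change is given here only for a comparison in which the gene was called. TRPC6, a receptor-operated cation channel, rose by 0.91 in controls and 0.96 in BPA animals, ITPR1, the calcium release channel opened by inositol trisphosphate, by 0.52 in controls, and ATP2A2, the calcium pump of the sarcoplasmic reticulum, by 0.49 and 0.44. CACNA1D, a voltage-gated calcium channel subunit, fell by 1.45 (SE 0.22, adjusted p = 0.000325) in controls and by 1.06 (SE 0.24, adjusted p = 0.0066) in BPA animals, and ATP2B1, a plasma membrane calcium pump, fell by 0.61 in controls. KCNMA1, the large-conductance potassium channel that quiets uterine muscle, rose by 1.27 (SE 0.31, adjusted p = 0.0085) in controls with overlapping groups. Its mean level in BPA animals was 14.08 at GD100 and 15.26 at GD165, higher but not called. ESR1, the estrogen receptor that drives OXTR and GJA1 in the adult uterus, rose by 0.73 (SE 0.16, adjusted p = 0.0046) in controls and 0.95 (SE 0.17, adjusted p = 0.0017) in BPA animals. PDE5A, which breaks down cyclic GMP, rose by 0.95 and CRHR2, a receptor of the corticotropin-releasing hormone family, fell by 0.54 in BPA animals. AVPR1A, a vasopressin receptor, was well above background on 4 of 5 GD100 and 1 of 4 GD165 control arrays, so its value of -0.84 (adjusted p = 0.0044) rests in large part on signals near background.

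**Figure D5:**
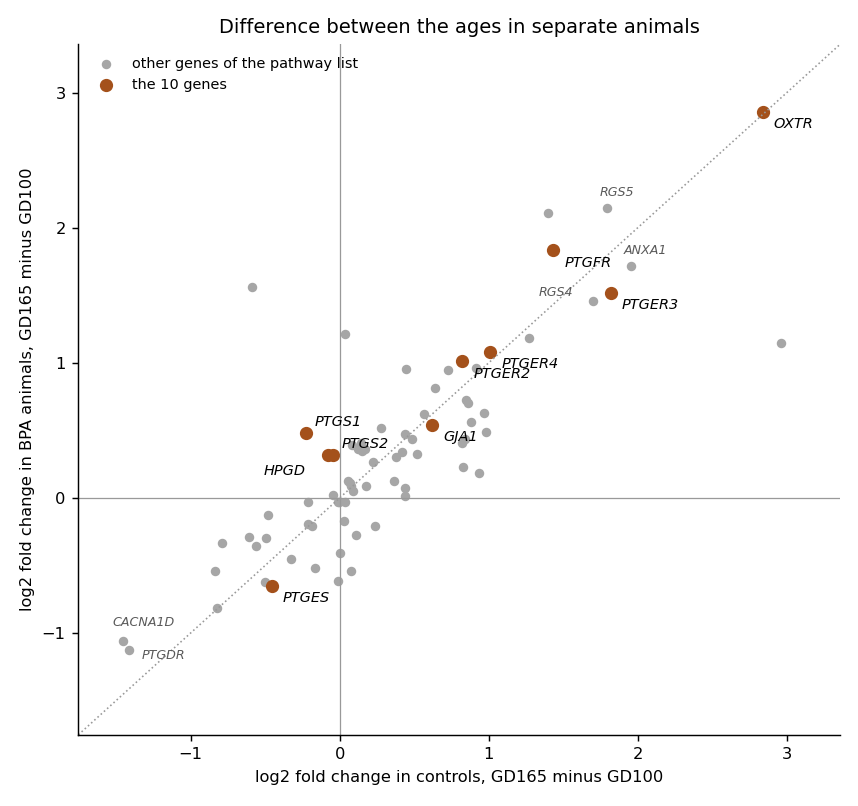
Log2 fold change between the ages in controls (x axis) and in BPA animals (y axis) for the 10 genes (large points) and the 67 further genes of the pathway list (grey), with a dotted line where both are equal. No animal enters both axes, OXTR lies at 2.84 and 2.86, and 4 of the grey points were dim, PGR being well above background on no array and CRH, AVPR1A and GJB2 on some but not all of the 17.

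None of the 67 genes and 0.0% of all probes were called in a BPA comparison or the interaction. At an unadjusted limma p under 0.05 there were 2 of the 67 at GD100, 5 at GD165 and 5 in the interaction. The shares of all probes at that threshold were 3.79%, 8.61% and 7.83%. At GD100 the highest absolute differences belonged to GJB2, another connexin, at 0.87 (SE 0.79, adjusted p = 0.9999), and HTR2B, a serotonin receptor, at 0.69 (SE 0.34, adjusted p = 0.9999). At GD165 they belonged to CRH and GJB2. CRH, corticotropin-releasing hormone, was well above background on 2 of 3 BPA and 0 of 4 control arrays. Its BPA mean was 1.31-fold the control mean once control signals were raised to the lowest signal called above background (limma adjusted p = 0.625). The groups overlapped, at levels of 1.69 to 6.36 in BPA animals and 0.99 to 3.78 in controls. GJB2 was at -0.94 (SE 0.96, adjusted p = 0.848). In the interaction GJB2 was at -1.81 (SE 1.24, adjusted p = 0.758), and CRH gives no value there, since no GD165 control array measured it above background.

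Some cell type markers were called between the ages as well, beside the 11.5% of all probes called in controls, and in whole tissue a lower level can mean fewer cells of a type or less RNA per cell, which cannot be told apart. In controls, all 12 smooth muscle markers were above 0, with log2 fold changes of 0.19 to 1.28 and a median of 0.40, and 4 were called (CNN1, LMOD1, SMTN and MYOCD). The mean of these markers, relative to their means over the arrays, was -0.44 to 0.09 in GD100 controls and 0.07 to 0.62 in GD165 controls. Of the epithelial markers 6 of 10 were called higher (median 0.73, score -0.61 to 0.04 and 0.41 to 0.63), of the leukocyte markers 2 of 10 (CD74 and LYZ, median 0.69, score -0.87 to -0.10 and 0.18 to 0.64) and of the endothelial markers 1 of 7 (VWF, median 0.39, score -0.48 to -0.01 and -0.11 to 0.61). The stromal markers had 0 of 6 above 0 (median -0.29, score -0.20 to 0.23 and -0.57 to 0.08), with PDGFRA called lower. Of the skeletal muscle markers 4 of 7 were called higher (median 5.14), of the squamous markers 0 of 10 (median 0.98) and of the erythroid markers 1 of 5 (HBB, median -0.01). The OXTR difference of 2.84 was outside the range of the smooth muscle, epithelial, stromal, endothelial and leukocyte markers but within that of the squamous, skeletal muscle and erythroid markers. Those of PTGER3, PTGER4, PTGFR, PTGER2 and GJA1 were within the ranges of the leukocyte (-0.01 to 2.14), squamous (-0.76 to 3.05) and erythroid markers (-0.17 to 6.46). That of PTGER3 was also within the range of the skeletal muscle markers (1.49 to 6.26). Those of PTGER4, PTGER2 and GJA1 were also within the ranges of the smooth muscle (0.19 to 1.28), epithelial (-0.21 to 1.34) and endothelial markers (-0.30 to 1.30). In BPA animals the medians between the ages were 0.37 for the smooth muscle markers, 0.54 for the epithelial, 0.66 for the leukocyte, 0.50 for the endothelial, -0.26 for the stromal, 3.05 for the skeletal muscle, -0.16 for the squamous and -1.28 for the erythroid markers. The part of these cell types in the differences of the 10 genes was not tested.

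Among the receptors and GJA1, Pearson's r over the 17 arrays ran from 0.53 to 0.90 for the 15 pairs when the difference between the ages was left in. After taking out the group means it ran from -0.34 to 0.70 with a median of 0.26. OXTR and PTGER3 had the highest value, 0.70, with GD165 control 1 first in both genes. For the 6 pairs of enzymes r ran from -0.35 to 0.26. Between receptors and enzymes, PTGS2 and PTGER4 had 0.62 and PTGS2 and OXTR 0.54, while GJA1 and PTGS1 had -0.54. Against the marker scores, also after taking out the group means, PTGES had r = -0.82 with the smooth muscle score. OXTR had 0.72, GJA1 0.65 and PTGER3 0.63 with the stromal score. PTGER4 had 0.70 with the endothelial score and GJA1 0.65 with the squamous score. With the difference between the ages left in, the sign with the stromal score was opposite, at -0.41 for OXTR, -0.24 for GJA1 and -0.21 for PTGER3. These values are descriptions of 17 arrays that share their scaling.

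The genes most like each member were sought among 13640 genes by Pearson's r of level over the 17 arrays, in which the difference between the ages takes part. For OXTR they were MAP3K5, GPNMB and PKIG (r = 0.98, 0.98 and 0.97). GJA1 was most like ECM1 (0.98), CLN2 and AP1S2 (both 0.96), PTGER3 was most like THSD2 (0.95), FOXO1A (0.94) and MICAL2 (0.92), and PTGER4 was most like FHL5 (0.95), ANGPT1 (0.94) and ARHGDIB (0.92). PTGFR had KIAA0774 (0.89), SNX2 and ATF3 (both 0.88), and PTGER2 had THSD1 (0.90), JMJD2C (0.88) and OKL38 (0.87). The values were lower for the enzymes, with PTGES nearest to CRABP2 (0.84), HPGD to C10orf48 (0.86), PTGS2 to CHIC1 (0.81) and PTGS1 to WDR1 (0.78).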

How the data were processed

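The authors extracted signals with Agilent Feature Extraction 9.5 at 1-color defaults, and the deposited intensity of each spot is the linear processed signal, background-subtracted and detrended, without scaling between arrays. Here log2 signals of the 2 spots per probe were averaged without outlier-flagged spots, and each array was shifted to a common 75th percentile, 12.62. limma 3.58.1 in R 4.3.3 was fitted to 17 arrays in 4 groups, with two-sided tests, Benjamini-Hochberg adjustment over 20217 probes and a threshold of 0.01. The study's methods used an error-weighted analysis of variance, whereas limma takes its error from the animals. The fit was tested on simulated data. Exact permutation tests went through every regrouping of the arrays in Python 3.11.15, and scipy 1.17.1 gave the quantiles for the confidence intervals. Each array is a separate fetus, and the number of arrays limits precision.

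Probes were named from the array's descriptions. Genes named are the 10 members, pathway list genes past the threshold in any comparison or, where fewer than 2 passed, the 2 remaining with the largest change, and the 3 genes most like a member. The members, the pathway list and the 8 marker lists were chosen with earlier results of these data known, and the single correlations after their values were seen. Alternatives covered background correction, scaling, filters, error models, blocks, a threshold of 0.05 and left-out arrays. The age effect averaged over treatments and the joint omission of 3 arrays were added after seeing the data. Coordinates were not used here, since the reference tables and the files name different genome builds.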

Additional observations from a re-analysis of the deposited data

How the results depend on the processing

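The directions of the age differences of the 5 receptors and GJA1 were the same in all 402 values computed under other settings, and no called value of any of the 10 genes changed sign. PTGES, which was not called, also kept its direction, lower at GD165, in both age comparisons under every setting. OXTR was called in every alternative for both age comparisons. Signs changed in 73 of 1660 member values, none of them called. In controls the number of the 10 genes called fell from 4 to 2 without scaling between arrays or without moderation of the variances, and to 1 when the fit held just the groups being compared, with slide as a fixed block, with the replicate block, or without the 3 arrays apart in muscle or squamous markers. The log2 fold changes stayed in the same direction in these fits, at 1.73 to 2.21 for PTGER3, 0.47 to 0.67 for GJA1 and 0.71 to 1.10 for PTGER4. The number called was 1 to 4 when single arrays were left out. In BPA animals it went from 2 to 4 with normexp correction or without scaling, to 6 at a threshold of 0.05, and to 1 with compared groups only, no moderation, the slide block or the replicate block, and was 1 to 3 over single arrays left out. Of the pathway list, calls in controls went from 13 to 23 at a threshold of 0.05, 21 for the averaged age effect, 7 with compared groups only or the replicate block, 8 without the 3 arrays apart, and 7 to 13 over single arrays left out. In BPA animals they went from 9 to 19 at 0.05, 3 with compared groups only or the slide block, 5 with the replicate block, and 4 to 10 over single arrays left out. In the BPA comparisons and the interaction, 0 of the 10 genes and 0 of the pathway list were called under every setting run, and at most 1 of all probes was. The labels do not say that the replicate numbers pair the arrays. Over 19 same-number pairs, deviations from the group means correlated between -0.17 and 0.16, with 3 pairs over 0.1. Over 88 pairs of other numbers they correlated between -0.21 and 0.23, with 17 pairs over 0.1. Across all probes, the replicate block called 958 in controls and 1444 in BPA animals instead of 2328 and 1956, and the slide block 1233 and 512. Compared groups only called 1172 and 1176, no scaling 1531 and 1635, and no moderation 2272 and 1830. A threshold of 0.05 gave 4279 and 4255, and normexp correction 2499 and 2187. Without the 3 arrays apart the counts were 1154 and 1347, and the averaged age effect had 4531. With single arrays left out they were 1512 to 2370 and 994 to 2131. The cause of each change was not tested. Dim signal limits PTGFR and the variant 8 probe of PTGER3, and 3 to 5 arrays per group leave intervals too wide to tell small BPA differences from none.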
